A study of Mus musculus with 24 samples.

Results

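The livers of chow-fed male mice lacking the DNA repair enzyme 8-oxoguanine DNA glycosylase (OGG1) were compared with those of chow-fed wild-type (WT) mice, gene by gene. The comparison took the arrays whose titles give liver, genotype and chow, 12 of the 24 in the series, with 6 *Ogg1-/-* and 6 WT livers. The other 12 arrays hold the same genotypes fed a high-fat diet (HFD), and they entered the same model fit and 1 test of the difference between diets. All mice were of strain C57BL6 by the labels, were 10 weeks old when housed singly, and had free access to their diet for 10 weeks, although the study's methods give a higher age at that time. The *Ogg1-/-* mice lacked the gene in every tissue. By the study's methods, their alleles had been backcrossed to C57BL/6J and were maintained through heterozygous matings. The hour of collection, and whether food was withdrawn beforehand, are not stated in the sources used here. Each liver gave 1 Affymetrix Mouse Gene ST array, and the deposited value of a probe set (a group of short probes for 1 transcript) is a log2 signal.

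OGG1 cuts oxidised guanine out of DNA in the nucleus and in mitochondria, as the first step of base excision repair. Liver keeps time with a transcriptional clock, in which BMAL1 (*Arntl*) and CLOCK drive genes with E-boxes, PER, CRY and other repressors shut that drive down, and the PAR bZIP factors DBP, TEF and HLF pass the rhythm on through D-boxes. Many liver genes for glucose, lipid and bile acid metabolism follow this rhythm and the times of feeding.

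The probe set of *Ogg1*, the targeted gene, was examined first. Its log2 value ran from 5.85 to 6.0 (median 5.94) in *Ogg1-/-* livers and from 6.26 to 6.55 (median 6.51) in WT livers. The genotypes did not overlap, and the difference was -0.54 (standard error, SE, 0.07, and limma adjusted p = 3.22e-05). The sources used here do not say whether its probes read the deleted part. Of the 6 *Ogg1-/-* livers, replicate 1 stood apart from the rest. It lay more than 1 log2 unit from the median of its other 5 group members in 2411 probe sets (6.78%), of which 1962 were below. The next liver, *Ogg1-/-* replicate 6, did so in 579 (1.63%), of which 515 were above. Replicate 1 carried the *Ogg1-/-* level of *Ogg1* at 6.0, and every difference is therefore given with all 12 chow livers and, where it moved a call, without replicate 1.

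Calls required a fold of 1.5 or more and a Benjamini-Hochberg adjusted p below 0.05 over all 35556 probe sets. On chow 86 probe sets met both criteria (0.242% of those tested), with 35 higher and 51 lower in the absence of OGG1. With each gene taken at its brightest probe set, 52 of 19939 genes were called (0.261%), 24 higher and 28 lower. Their median fold was 1.74, and in 41 of them (16 higher, 25 lower) the genotypes did not overlap. The same absence of overlap was found in 245 (1.23%) of all genes. The median difference of all genes was 0.03 on the log2 scale. Without *Ogg1-/-* replicate 1, 69 probe sets were called, of which 59 were among the 86, 27 were lost and 10 were gained. By gene, 33 remained, 19 were lost and 8 were gained. Every one of the 86 kept its sign, and 44 of the 52 genes moved nearer to 0, with a median ratio of the new to the old difference of 0.93. Leaving out *Ogg1-/-* replicate 6 instead gave 322 called probe sets (80 higher, 242 lower), 82 of the 86 among them. In whole liver, fewer cells of a type and less RNA per cell cannot be told apart in any of these differences.

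**Figure D1:**
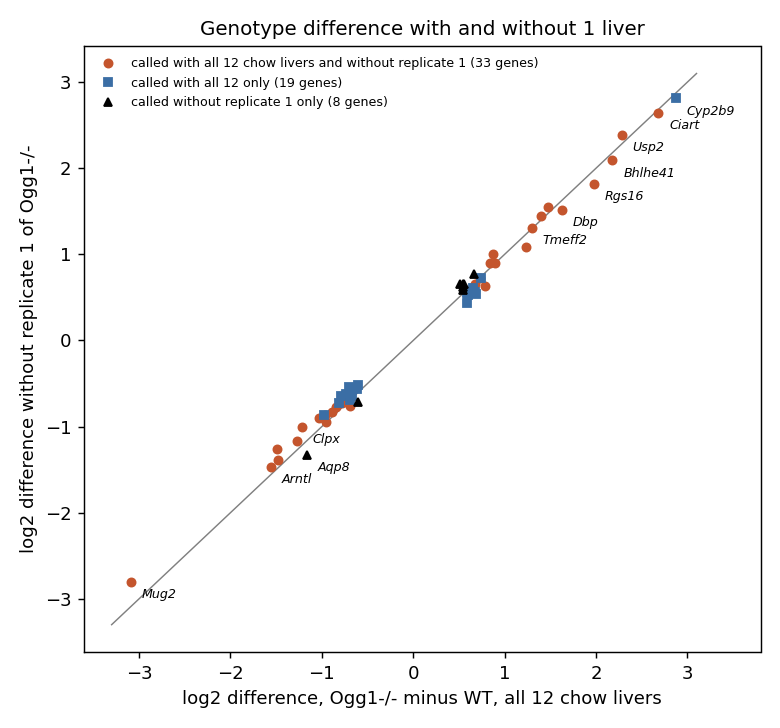
Log2 difference, *Ogg1-/-* minus WT, of each called gene with all 12 chow livers (horizontal axis) and without *Ogg1-/-* replicate 1 (vertical axis). Circles are the 33 genes called both ways, squares the 19 called with all 12 only and triangles the 8 called without replicate 1 only, and the line marks equal values. The points stay near the line, and most of the genes that lost or gained their call have small differences.

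Clock genes and genes that follow the clock made up most of the 12 largest rises without overlap. Of 10 measured clock repressors, 6 rose, 4 did not pass the test and 0 fell, with a median difference of 0.50. A list member is said to pass, rise or fall when its adjusted p was under 0.05 at any fold. Of all genes, 0.341% passed as higher and 0.276% as lower, and without replicate 1 0.246% and 0.171%. *Ciart*, a repressor of the clock, ran from 7.87 to 9.6 (median 9.30) in *Ogg1-/-* livers and from 5.83 to 7.16 (median 6.26) in WT livers. Every *Ogg1-/-* liver lay above every WT liver, by a mean of 2.68 (SE 0.31, limma adjusted p = 1.99e-05). *Bhlhe41*, which encodes the E-box repressor DEC2, ran from 7.32 to 8.08 (median 7.56) against 5.22 to 5.72 (median 5.44) in WT counterparts. It also had no overlap, with a difference of 2.18 (SE 0.21, limma adjusted p = 1.57e-06). *Per1*, an early and stimulus-responsive member of the *Per* repressors, ran from 7.24 to 8.43 (median 7.64) against 6.33 to 6.67 (median 6.48), and rose by 1.23 (limma adjusted p = 0.00534).

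*Per3*, another *Per* repressor, overlapped between genotypes through 1 liver. Its log2 value ran from 6.93 to 7.97 (median 7.60) in *Ogg1-/-* livers and from 6.52 to 6.94 (median 6.73) in WT livers. The lowest *Ogg1-/-* value was that of replicate 1, and it alone overlapped WT. The difference was 0.87 (limma adjusted p = 0.00256) with that liver and 1.0 (limma adjusted p = 4.84e-05) without it. *Per2* and *Cry2*, also repressors, rose by 0.57 and 0.42 on the log2 scale. Without replicate 1 their differences were 0.56 and 0.40, still without overlap, and their adjusted p from limma 0.0738 and 0.0659, so that 4 repressors passed as higher, and the list's median was 0.53. *Nr1d1*, which encodes REV-ERBα, differed by 0.42 (limma adjusted p = 0.054). *Cry1*, a repressor whose peak comes later than those of the *Per* genes, differed by -0.08 and *Nr1d2* by -0.02. The genotype difference in these genes and a difference in hour of collection cannot be told apart here.

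The starts of 9 genes are shown because they carry, in the 250 bases before and 50 after a RefSeq start (GRCm38.p6), the letters of a clock element. The first 6 are genes that were higher with an E-box (CACGTG), and *Per3* and *Coq10b* have the D-box searched (TTATGTAA or TTACGTAA). *Arntl* and *G6pc*, both lower, have the ROR element searched (TAGGTCA), and *G6pc* a D-box too. Capitals mark the matches, on either strand, and each sequence reads 5′ to 3′ on the strand of the gene.
*Ciart* (chr3:95882179-95882478, minus strand): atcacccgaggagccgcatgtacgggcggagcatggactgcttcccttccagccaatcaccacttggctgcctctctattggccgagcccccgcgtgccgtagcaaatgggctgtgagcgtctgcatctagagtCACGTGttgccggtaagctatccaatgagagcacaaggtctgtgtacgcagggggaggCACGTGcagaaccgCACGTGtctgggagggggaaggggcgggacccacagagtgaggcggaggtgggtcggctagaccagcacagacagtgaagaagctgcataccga
*Bhlhe41* (chr6:145865371-145865670, minus strand): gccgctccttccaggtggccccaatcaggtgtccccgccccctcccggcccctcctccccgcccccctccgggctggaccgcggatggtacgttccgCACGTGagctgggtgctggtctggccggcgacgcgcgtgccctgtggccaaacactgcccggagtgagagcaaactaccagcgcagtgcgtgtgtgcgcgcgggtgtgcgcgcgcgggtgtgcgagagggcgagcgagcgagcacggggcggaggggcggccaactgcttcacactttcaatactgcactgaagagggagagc
*Per1* (chr11:69098699-69098998, plus strand): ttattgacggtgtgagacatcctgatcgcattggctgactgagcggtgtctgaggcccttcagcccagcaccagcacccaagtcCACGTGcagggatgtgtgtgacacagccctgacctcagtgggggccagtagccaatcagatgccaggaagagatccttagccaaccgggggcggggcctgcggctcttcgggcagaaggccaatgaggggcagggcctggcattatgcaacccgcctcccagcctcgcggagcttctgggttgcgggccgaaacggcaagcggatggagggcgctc
*Tef* (chr15:81802423-81802722, plus strand): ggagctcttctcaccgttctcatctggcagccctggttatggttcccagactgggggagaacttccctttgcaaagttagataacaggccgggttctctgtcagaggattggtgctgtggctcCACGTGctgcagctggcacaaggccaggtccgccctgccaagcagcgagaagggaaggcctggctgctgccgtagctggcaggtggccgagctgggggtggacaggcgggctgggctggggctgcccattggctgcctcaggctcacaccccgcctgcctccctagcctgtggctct
*Tmeff2* (chr1:50927273-50927572, plus strand): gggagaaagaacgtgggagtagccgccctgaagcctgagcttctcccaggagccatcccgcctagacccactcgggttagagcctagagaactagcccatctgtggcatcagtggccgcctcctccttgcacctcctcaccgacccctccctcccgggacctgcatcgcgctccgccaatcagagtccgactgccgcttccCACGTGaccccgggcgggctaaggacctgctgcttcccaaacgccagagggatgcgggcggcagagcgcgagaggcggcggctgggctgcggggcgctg
*Coq10b* (chr1:55052520-55052819, plus strand): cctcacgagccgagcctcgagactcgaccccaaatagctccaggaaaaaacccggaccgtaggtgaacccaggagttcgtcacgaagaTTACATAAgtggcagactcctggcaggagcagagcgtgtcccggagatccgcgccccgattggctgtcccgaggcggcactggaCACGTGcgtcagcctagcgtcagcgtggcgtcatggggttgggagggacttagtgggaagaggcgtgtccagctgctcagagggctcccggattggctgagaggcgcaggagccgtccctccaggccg
*Per3* (chr4:151044616-151044915, minus strand): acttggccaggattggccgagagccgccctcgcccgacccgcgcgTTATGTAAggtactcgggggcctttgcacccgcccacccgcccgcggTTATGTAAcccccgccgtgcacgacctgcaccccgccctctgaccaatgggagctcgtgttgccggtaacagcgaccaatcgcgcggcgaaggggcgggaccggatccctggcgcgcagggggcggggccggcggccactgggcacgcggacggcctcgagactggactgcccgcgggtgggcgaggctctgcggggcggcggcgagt
*Arntl* (chr7:113207261-113207560, plus strand): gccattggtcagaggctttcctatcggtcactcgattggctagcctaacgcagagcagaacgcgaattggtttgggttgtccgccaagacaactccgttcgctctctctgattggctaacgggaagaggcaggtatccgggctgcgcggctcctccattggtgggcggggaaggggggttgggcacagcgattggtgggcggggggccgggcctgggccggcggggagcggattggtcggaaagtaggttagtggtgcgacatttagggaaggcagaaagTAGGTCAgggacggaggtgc
*G6pc* (chr11:101367466-101367765, plus strand): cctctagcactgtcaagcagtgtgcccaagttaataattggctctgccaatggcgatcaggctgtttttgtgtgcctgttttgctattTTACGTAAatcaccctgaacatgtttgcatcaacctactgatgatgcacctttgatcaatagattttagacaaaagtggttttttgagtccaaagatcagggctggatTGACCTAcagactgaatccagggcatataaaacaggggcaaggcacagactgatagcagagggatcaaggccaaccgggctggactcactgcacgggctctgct

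In *Ciart* the letters of the E-box came 3 times, at 116, 58 and 44 bases before the start. *Bhlhe41* had 1 at 153, *Per1* at 166, *Tef* at 127 and *Tmeff2* at 49 bases before it. Of the 24 called genes that were higher, 21 had a promoter in the RefSeq table, and 8 of these (38.1%) held an E-box. The share was 8.7% (2 of 23) for genes called lower and 8.09% for all 27025 genes with a promoter in the table. The ROR element was found in 0 of the 21 higher genes, in 3 (13%) of the 23 lower genes (*Arntl*, *Dhrs9* and *G6pc*) and in 2.97% of all. The D-box was in 2 higher genes (9.52%), 1 lower gene (4.35%) and 1.23% of all. These are matches of letters and not shown to be bound in these livers, and *Usp2*, *Dbp* and *Rgs16*, which rose strongly, have none in this window.

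The PAR bZIP factors rose together: 3 of 4 measured members of that list with its antagonist *Nfil3* were higher, and the median difference was 0.67. *Dbp* ran from 10.37 to 11.22 (median 10.56) in *Ogg1-/-* livers and from 8.58 to 9.44 (median 9.07) in WT livers. With no overlap, it differed by 1.63 (SE 0.16, limma adjusted p = 1.95e-06). *Tef* ran from 8.65 to 8.97 (median 8.81) against 7.59 to 8.19 (median 7.91), a difference of 0.90 (limma adjusted p = 2.07e-05). *Hlf* rose less, by 0.43 (limma adjusted p = 0.0045). All 3 also passed without replicate 1, but *Hlf* did not pass when only the chow arrays were fitted (adjusted p = 0.0665) or by the methods' t-test (adjusted p = 0.0911).

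The activators lay the other way. *Arntl*, which encodes BMAL1, ran from 5.79 to 6.46 (median 6.23) in *Ogg1-/-* livers and from 7.36 to 8.23 (median 7.73) in WT livers. No *Ogg1-/-* liver reached the lowest WT value, and the difference was -1.56 (SE 0.17, limma adjusted p = 1.21e-05). *Clock*, its partner, ran from 6.70 to 8.75 (median 7.98) against 8.57 to 9.66 (median 8.99). Its difference of -1.10 did not pass (limma adjusted p = 0.0717), it was -0.86 without replicate 1 (adjusted p = 0.149), and it passed without replicate 6 (-1.27, adjusted p = 0.0235), as it did without replicate 5. *Rora*, which activates *Arntl*, differed by -0.52 (limma adjusted p = 0.18).

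**Figure D2:**
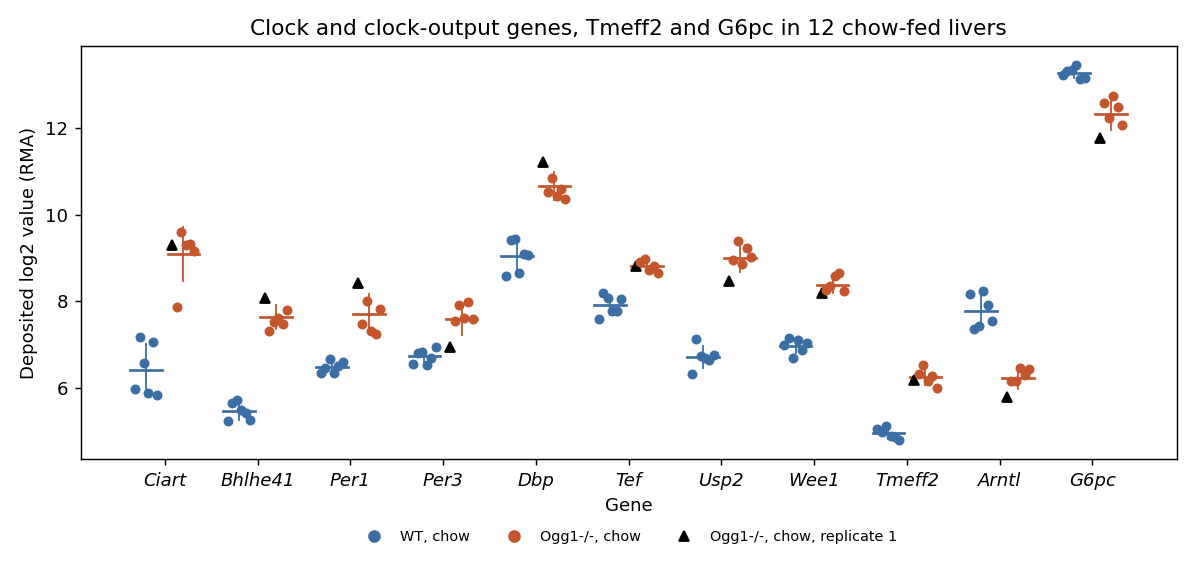
Log2 value of 11 genes in each chow-fed liver. Circles are the 6 WT livers and the *Ogg1-/-* livers other than replicate 1, which is the triangle. Bars mark the mean (horizontal) and SD (vertical) of 6 livers. The genotypes overlap in *Per3* alone, where the triangle at 6.93 lies below the highest WT liver at 6.94.

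Genes that follow the clock in liver were also among the largest rises. Of 17 measured output genes 6 were higher and 1 was lower, with a median of 0.26. The lower one was *Elovl3*, described with the falls. *Usp2*, which encodes a deubiquitinase, ran from 8.46 to 9.39 (median 9.0) in *Ogg1-/-* livers and from 6.32 to 7.13 (median 6.71) in WT livers. The gap between the groups was wider than either group's range, and the difference was 2.28 (SE 0.25, limma adjusted p = 9.14e-06). *Wee1*, which encodes a kinase that holds back entry into mitosis, ran from 8.19 to 8.64 (median 8.30) against 6.69 to 7.14 (median 7.01). It rose by 1.40 (SE 0.12, limma adjusted p = 5.39e-07). *Rgs16*, a regulator of G protein signalling, rose by 1.98 with overlap (8.62 to 10.48 against 6.62 to 8.74), at an adjusted p from limma of 0.0154, and of 0.0442 without replicate 1. *Klf13*, a Krüppel-like factor, rose by 0.73, *Coq10b*, which encodes a coenzyme Q-binding protein of mitochondria, by 0.84 and the tetraspanin gene *Tspan4* by 0.79. *Tspan4* drew on replicate 1, at 11.47 where the other 5 ran from 10.22 to 10.81, and its difference was 0.63 without it. *Coq10b* did not pass without WT replicate 1 or 4 or *Ogg1-/-* replicate 4. When only the chow arrays were fitted, *Tspan4* (limma adjusted p = 0.176) and *Coq10b* (adjusted p = 0.0542) did not pass. Clock kinases and ubiquitin ligases had a median of 0.02, and none of the 6 passed.

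*Tmeff2*, which encodes a transmembrane protein with follistatin-like domains, had the smallest adjusted p of the genes that rose on chow. It ran from 6.0 to 6.53 (median 6.22) in *Ogg1-/-* livers and from 4.78 to 5.11 (median 4.92) in WT livers, without overlap. The difference was 1.30 (SE 0.10, limma adjusted p = 6.38e-08). *AI506816* ran from 6.67 to 7.86 (median 6.91) against 5.08 to 6.17 (median 5.56) and rose by 1.47 (limma adjusted p = 0.00972). The largest rise of all was that of *Cyp2b9*, a cytochrome P450 gene with a higher level in female than male liver. It ran from 5.98 to 11.45 (median 9.42) in *Ogg1-/-* livers and from 5.07 to 7.40 (median 5.95) in WT livers, so that the groups overlapped over a wide range. Its difference of 2.87 (SE 0.63) passed at an adjusted p from limma of 0.0384, and without replicate 1 the difference was 2.81 and the adjusted p 0.084. It also did not pass without *Ogg1-/-* replicate 2 or 4, or without WT replicate 1, 3, 4, 5 or 6. *Cyp2b9* belongs to a family of near-identical genes, and its probes may read other members.

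The largest fall was in *Mug2*, which encodes a murinoglobulin, a plasma proteinase inhibitor of the α2-macroglobulin family. Its log2 value ran from 8.02 to 10.34 (median 9.66) in *Ogg1-/-* livers and from 12.20 to 12.87 (median 12.58) in WT livers. All *Ogg1-/-* livers were below all WT livers, by 3.09 on the log2 scale on average (SE 0.27, limma adjusted p = 5.39e-07), or 8.53-fold. Replicate 1 was the lowest, and the difference without it was -2.80. A second *Mug2* probe set differed by -2.83, whereas the paralog *Mug1* differed by -0.41 (limma adjusted p = 0.185). *Gm10319*, next to *Mug2* in the order of genes, ran from 7.98 to 9.07 (median 8.41) against 9.28 to 10.45 (median 9.98) and fell by 1.48 (limma adjusted p = 0.0029). Whether probes of *Gm10319* and *Mug2* share sequence could not be checked.

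*Mug2* and *Gm10319* lie on the chromosome of *Ogg1*, 98 and 99 measured genes away. Within 100 genes on either side of *Ogg1*, 4 of 200 genes were called (2%), against 0.261% of all genes, and within 150 genes 5 of 300 (1.67%). Between 150 and 200 genes away none was added, at 5 of 400 (1.25%). The same 5 genes were called without replicate 1. *Sumf1*, 17 genes away and encoding the enzyme that activates sulfatases, was the 1 that rose. It ran from 8.19 to 8.45 (median 8.28) in *Ogg1-/-* livers and from 7.49 to 7.75 (median 7.64) in WT livers, a difference of 0.68 (SE 0.07, limma adjusted p = 5.71e-06). *Bid*, 88 genes away and encoding a proapoptotic BCL-2 family protein, ran from 6.11 to 6.52 against 6.79 to 7.31 and fell by 0.75 (limma adjusted p = 8.79e-05). *Apobec1*, 105 genes away and encoding the editor of apolipoprotein B mRNA, fell by 0.84 with overlap (7.90 to 8.78 against 8.77 to 9.40, limma adjusted p = 0.0149). It did not pass when only the chow arrays were fitted (limma adjusted p = 0.058). *Adipor2*, which encodes a receptor for adiponectin, passed at 70 genes away but at a fold of 1.49. It ran from 11.48 to 11.96 against 12.31 to 12.40 and fell by 0.57 (limma adjusted p = 4.16e-05). *Sec13*, a coat and nuclear pore protein gene at 20 genes away, rose by 0.29 (limma adjusted p = 0.0485) but did not pass without replicate 1 (adjusted p = 0.0994). The sources used here do not say how much DNA of the original strain remained around the targeted allele, and for these genes loss of OGG1 and linked DNA cannot be told apart.

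**Figure D3:**
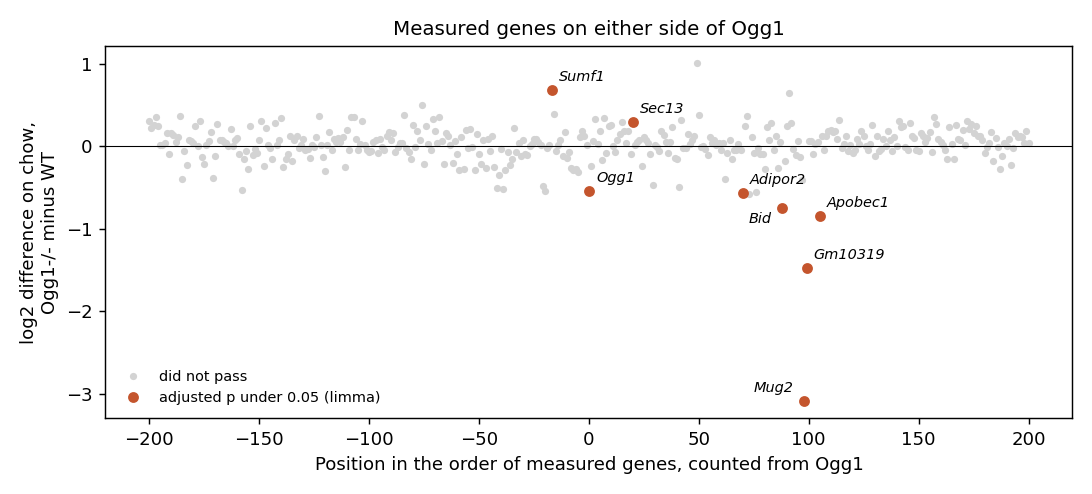
Log2 difference, *Ogg1-/-* minus WT on chow, of each measured gene (vertical axis) by its place in the order of measured genes counted from *Ogg1* (horizontal axis, up to 200 genes to each side). Genes with an adjusted p under 0.05 are coloured and named. *Mug2* at 98 has the lowest difference, -3.09, and most of the named genes lie to the right of *Ogg1*.

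Among genes of glucose metabolism, *G6pc*, which encodes the catalytic subunit of glucose-6-phosphatase, was lower. It ran from 11.78 to 12.74 (median 12.36) in *Ogg1-/-* livers and from 13.15 to 13.47 (median 13.27) in WT livers. The groups did not overlap, and the difference was -0.96 (SE 0.16, limma adjusted p = 0.00457), or -0.86 without replicate 1 (adjusted p = 0.0122). *Slc37a4*, which encodes the glucose-6-phosphate transporter that feeds this enzyme, lay the other way. It rose by 0.45 (limma adjusted p = 0.0431) but did not pass without replicate 1 (adjusted p = 0.0978). *Stbd1*, a glycogen-binding protein, rose by 0.54 (limma adjusted p = 0.0015, and 0.0602 when only the chow arrays were fitted). These were the 3 of 17 genes of gluconeogenesis and glycogen that passed, and the list's median was 0.07. None of 15 glycolysis genes passed (median 0.09). Of 15 genes of insulin signalling and FOXO, *Trib3* passed as higher (0.59, limma adjusted p = 0.00662), and it was also the 1 of 18 ATF4 targets that passed. Without replicate 1 its difference was 0.55 (limma adjusted p = 0.0188), under the fold threshold. *Trib3* did not pass when only the chow arrays were fitted (limma adjusted p = 0.103) or by the methods' t-test (adjusted p = 0.213). *Sesn3*, which encodes a sestrin, passed as lower in the same list of 15 (-0.57, limma adjusted p = 0.0469, and 0.108 without replicate 1).

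The falls included several enzymes and regulators of other pathways. *Chka*, the choline kinase that starts phosphatidylcholine synthesis, ran from 7.74 to 8.24 (median 7.96) in *Ogg1-/-* livers and from 8.59 to 9.35 (median 8.92) in WT livers. It fell by 0.95 (SE 0.13, limma adjusted p = 0.000129), and by 0.95 also without replicate 1. *Sardh*, which breaks down sarcosine, fell by 0.38 with overlap, and with *Chka* made 2 of 14 genes of choline and one-carbon metabolism that passed. *Sardh* did not pass when only the chow arrays were fitted (limma adjusted p = 0.103). *Papss1*, which makes the sulfate donor PAPS, fell by 0.69, so that with *Sumf1* 1 of 12 genes of sulfur metabolism was higher and 1 lower. *Clpx*, the unfolding subunit of the mitochondrial protease ClpXP, ran from 7.57 to 9.47 (median 8.68) against 9.57 to 10.28 (median 9.84). The groups lay just apart, with a difference of -1.22 (SE 0.22, limma adjusted p = 0.00683) and of -1.0 without replicate 1. It did not pass when only the chow arrays were fitted (limma adjusted p = 0.116). *Clpx* was the 1 of 17 mitochondrial protease, chaperone and mitochondrial DNA genes that passed. *Camk1d*, a calcium- and calmodulin-dependent kinase gene, fell by 1.03, the tight junction gene *Cldn1* by 0.67 and *Serpinb1a*, an intracellular inhibitor of neutrophil proteases, by 1.27. With only the chow arrays fitted, *Camk1d* (limma adjusted p = 0.0784) and *Serpinb1a* (adjusted p = 0.0947) did not pass. *Gm11437* fell by 1.49, with replicate 1 at 5.97 and the other 5 from 6.64 to 7.67, and *Serpinb6b*, of a family of close paralogs that its probes may read, by 0.89. Neither *Gm11437* (limma adjusted p = 0.074) nor *Serpinb6b* (adjusted p = 0.0634) passed when only the chow arrays were fitted.

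Several falls no longer passed without the outlying liver, but that liver was not alone in this. Of the 50 genes that passed among 81 named genes rerun in each alternative, 12 did not pass without replicate 1. Each of the 12 also did not pass without at least 1 other chow-fed liver. *Sec13* was not among the 81. *Rnf125*, a ubiquitin ligase gene and the 1 of 23 interferon-induced genes that passed, ran from 10.73 to 11.69 against 11.84 to 12.62. It fell by 0.98 with all livers (limma adjusted p = 0.0389), and differed by -0.87 without replicate 1 (adjusted p = 0.101). *Dhrs9*, a dehydrogenase of retinoids and steroids, fell by 0.81, and differed by -0.73 without it (limma adjusted p = 0.0597). *Elovl3*, which elongates long-chain fatty acids and is higher in male liver, fell by 0.67, and differed by -0.56 without it (limma adjusted p = 0.117). *Ddc*, which makes amines from aromatic amino acids, fell by 0.79, and differed by -0.64 without it (limma adjusted p = 0.0731). The centromere gene *Cenpm* fell by 0.69 and kept a difference of -0.69 without it (limma adjusted p = 0.0787). *Stra6l*, related to a retinol receptor and the 1 of 11 retinol genes that passed, fell by 0.40, and differed by -0.33 without it (limma adjusted p = 0.0567). Conversely, *Aqp8*, a water channel, had replicate 1 at 11.46 and the other 5 *Ogg1-/-* livers from 9.88 to 10.67, against 11.35 to 12.28 in WT livers. Its difference went from -1.16 (limma adjusted p = 0.0512) to -1.33 (adjusted p = 0.0194) when replicate 1 was left out. *Mtss1*, which encodes a membrane-bending protein, went from 0.54 to 0.62 and so past the fold threshold. When only the chow arrays were fitted it did not pass with replicate 1 (limma adjusted p = 0.0516) and did without it (adjusted p = 0.00264).

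*Ogg1* was the 1 that passed of 11 genes in a list of DNA glycosylases and *Nudt1*, a hydrolase of oxidised nucleotides, and the median of the list was 0.09. *Neil1*, a glycosylase for oxidised bases, ran from 6.92 to 7.50 (median 7.20) against 6.83 to 7.11 (median 6.91), which overlapped (0.25, limma adjusted p = 0.174). *Nthl1*, another such glycosylase, differed by 0.11 (limma adjusted p = 0.521). None of 14 genes that act after the glycosylase passed (median 0.04, none by the methods' t-test), and 5 had an unadjusted p under 0.05, as did 21.1% of all genes. Of 22 p53 targets *Bid* passed as lower, and of 23 NRF2 and oxidative stress genes none passed (median 0.00, 5 with an unadjusted p under 0.05, none by the methods' t-test). Of 23 genes of the unfolded protein response 1 passed, *Herpud1*, which acts in endoplasmic reticulum-associated degradation and rose by 0.57 (limma adjusted p = 0.00256). Of 18 inflammatory genes *Nfkbia*, which encodes the NF-κB inhibitor IκBα, rose by 0.53 (limma adjusted p = 0.0295, and 0.0738 without replicate 1).

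The lists of lipid synthesis, fatty acid oxidation, the TCA cycle and the respiratory chain had no member that passed. The median difference was -0.23 over 18 genes of fatty acid synthesis, -0.28 over 20 of cholesterol synthesis and uptake (1 of 20 above 0), -0.04 over 19 of mitochondrial fatty acid oxidation and -0.06 over 23 of the TCA cycle and pyruvate. Of all 19939 genes, 11566 were above 0. Complex I was slightly above all genes, at 0.16 with 32 of 34 members above 0, and complexes III, IV and ATP synthase at 0.12. Both were closer to 0 without replicate 1, at 0.08 and 0.04. In all, 40 of 63 lists had no member that passed in limma. They hold 631 genes, of which 163 had an unadjusted p under 0.05, as did 4207 of all 19939 genes (21.1%), and 0 passed by the methods' t-test.

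Some genes of these pathways had also been chosen for qPCR, and a probe set could be matched to 25 of them. Many were picked by the study from genes that differed between genotypes on the HFD in these same arrays. On chow 0 of the 25 passed in limma, with or without replicate 1. Without replicate 6 instead, *Aco1* alone passed, as lower (-0.39, limma adjusted p = 0.0406), where 1.59% of all genes passed as lower. With all livers, 9 of the 25 had an unadjusted p under 0.05, against 21.1% of all genes. By the methods' t-test 0 of the 25 passed, and the adjusted p from limma ran from 0.109 to 0.903. The median difference of the 25 was -0.19 with all livers and -0.05 without replicate 1, which lay below the other 5 *Ogg1-/-* livers in 18 of them. The share of all genes for that count is not given here. *Etfdh*, which passes electrons from fatty acid oxidation to coenzyme Q, was at 9.18 in replicate 1 and from 10.69 to 11.27 in the other 5. Its difference was -0.52 with and -0.22 without that liver. *Acadm*, the medium-chain acyl-CoA dehydrogenase, was at 10.59 in replicate 1 and from 11.77 to 11.96 in the others, and its difference went from -0.28 to -0.06. *Mdh1*, the cytosolic malate dehydrogenase, stood at 10.90 against 12.01 to 12.42, and its difference went from -0.34 to -0.12. *Fh1*, the fumarase of the TCA cycle, went from -0.29 to -0.05, and *Dld*, a subunit shared by mitochondrial dehydrogenase complexes, from -0.45 to -0.16. *Ppargc1a*, which encodes the coactivator PGC-1α, ran from 6.40 (replicate 1) to 7.59 (median 7.30) in *Ogg1-/-* livers and from 7.38 to 8.26 (median 7.76) in WT livers. It differed by -0.57 (limma adjusted p = 0.149), and by -0.40 without replicate 1 (adjusted p = 0.343). By qPCR the study reported *Ppargc1a* as significantly lower in chow-fed *Ogg1-/-* livers, a measurement not analysed here.

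**Figure D4:**
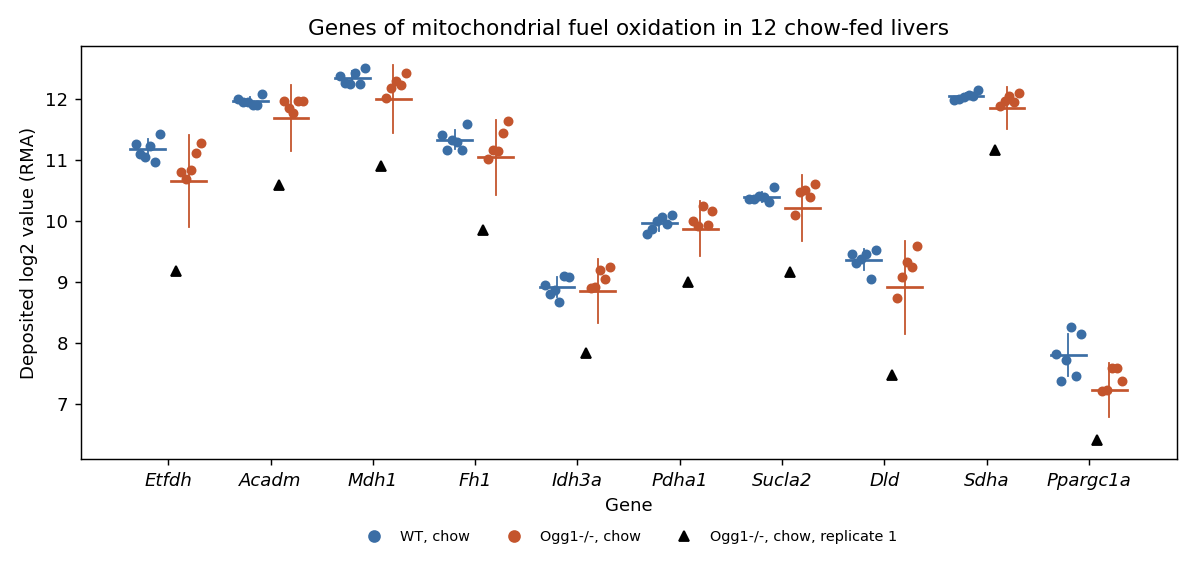
Log2 value of 10 genes of mitochondrial and fuel metabolism in each chow-fed liver, with symbols, means and SDs as in the plot of clock genes. *Ogg1-/-* replicate 1 (triangle) is the lowest *Ogg1-/-* liver in each of them, and the other 5 *Ogg1-/-* livers lie close to or among the WT livers.

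Replicate 1 did not depart in 1 direction. It lay more than 1 log2 unit from its group in 6.78% of all probe sets, mostly below. The share of all genes lying outside the other 5 livers is not given, so the counts below do not set lists against all genes. The median member of the male-biased liver genes lay 1.21 below the median of the other 5 *Ogg1-/-* livers on the log2 scale, and 10 of 15 were below all 5. Coagulation and complement genes were at -0.63 (20 of 26 below all 5), mitochondrial fatty acid oxidation at -0.59 (15 of 19), CAR and PXR targets at -0.58 (14 of 20), bile acid genes at -0.48 (16 of 22) and TCA cycle and pyruvate genes at -0.44 (15 of 23). Subunits encoded in the nucleus for the respiratory chain lay above, with complex I at 0.52 (31 of 34 above all 5) and complexes III, IV and ATP synthase at 0.53 (27 of 34). Cytosolic ribosomal proteins were at 0.36 (32 of 41 above all 5). Clock repressors were at 0.08, where 4 of 10 lay above all 5 and 3 below. Clock activators were at -0.95 (3 of 3 below all 5) and clock output genes at -0.31 (9 of 17). By gene, the metal-binding metallothioneins *Mt2* and *Mt1* lay 2.32 and 2.17 above, and *Saa3*, an acute phase protein, 1.57 above. The thioredoxin-like *Glrx3* lay 2.97 below and *Cyp7b1*, an oxysterol hydroxylase of bile acid synthesis that is higher in male liver, 2.32 below. Replicate 6 lay the other way in some of these lists, with CAR and PXR targets at 0.38, interferon-induced genes at 0.32 and coagulation and complement at 0.28. Without replicate 6, 5 of 23 interferon-induced genes and 4 of 22 bile acid genes passed as lower on chow, against 1.59% of all genes in the same fit.

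**Figure D5:**
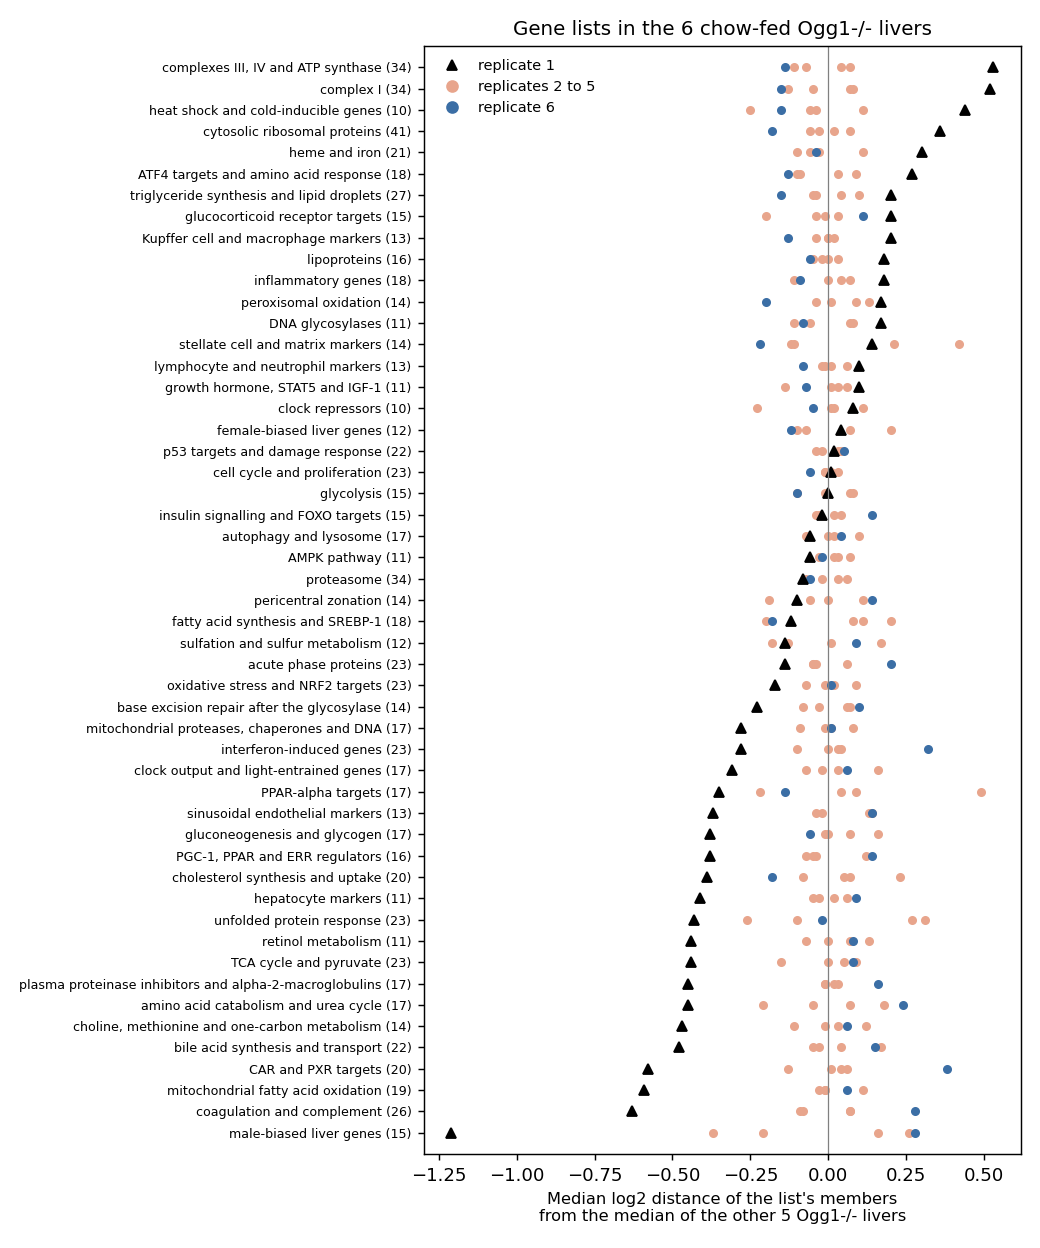
For 51 gene lists with at least 10 measured members (their number of members in brackets), the median log2 distance of the members in 1 *Ogg1-/-* liver from the median of the other 5. Triangles are replicate 1, and circles the other livers, with replicate 6 in blue. Replicate 1 ranges from -1.21 for male-biased liver genes to 0.53 for complexes III, IV and ATP synthase, beyond the other livers in most lists.

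The samples carried the profile of liver. The mean log2 level of 11 hepatocyte markers was 13.30 to 13.35 in WT livers and 13 to 13.38 in *Ogg1-/-* livers, where the lowest was replicate 1. None of the hepatocyte, endothelial, Kupffer cell, lymphocyte, stellate, bile duct, pancreas, adipocyte, erythroid or muscle markers passed with all livers. Without replicate 1, the muscle marker *Csrp3* was called lower. Its difference went from -0.60 (limma adjusted p = 0.0941) to -0.71 (adjusted p = 0.0442). Mean levels of the pancreas markers were 5.48 to 5.64 in WT livers and 5.54 to 5.81 in *Ogg1-/-* livers, and those of the bile duct markers 5.68 to 5.87 and 5.67 to 6.20, below the median level of all genes (6.33). The Kupffer cell markers had means of 8.26 to 8.71 and 8.54 to 8.92, and the endothelial markers of 8.59 to 8.90 and 8.46 to 8.83, with replicate 1 at 8.92 and 8.46. Their part in the differences was not tested.

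Whether the genotype difference depended on diet was tested as the interaction in the same fit. With all 24 livers, 1 probe set was called, at an adjusted p under 0.05 and a fold of 1.5 or more (0.00281% of those tested). It was that of *Tmeff2*. Its difference was 1.30 on chow and 0.13 on the HFD, so that the HFD difference was lower by 1.17 on the log2 scale (limma adjusted p = 0.000415). A total of 2447 had an unadjusted p under 0.05. Without *Ogg1-/-* chow replicate 1, 272 were called by the same 2 criteria (0.765%). In 219 of these the HFD difference was lower than the chow difference. They included 179 genes, 2 of which were called on chow: *Tmeff2* (-1.19, limma adjusted p = 0.000825) and *Bhlhe41* (-1.21, adjusted p = 0.0418). Of the 25 genes chosen for qPCR, 5 had an interaction with an adjusted p under 0.05 once that liver was left out. Many of the 25 were picked by the study from genes that differed on the HFD in these same arrays. *Etfdh*, *Eci2*, *Idh3a* and *Pdha1* were picked so, as lower in *Ogg1-/-* livers. A lower HFD difference was thus favoured by the choice, and the 5 are not independent evidence of it. The share of all genes at this threshold, set without a fold, is not given here. *Etfdh* had -0.81 (limma adjusted p = 0.0385), *Eci2*, an isomerase of fatty acid oxidation, -0.83 (adjusted p = 0.0266), *Idh3a*, a subunit of isocitrate dehydrogenase, -0.72 (adjusted p = 0.0229), the nuclear receptor *Ppara* -0.66 (adjusted p = 0.0339) and *Pdha1*, a subunit of pyruvate dehydrogenase, -0.52 (adjusted p = 0.0419). Leaving out any other single chow-fed liver gave 1 called probe set, array weights gave 16, and leaving out *Ogg1-/-* replicates 1 and 6 together gave 22.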

How the data were processed

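Liver RNA was hybridised to 1 Mouse Gene ST array per mouse. The authors deposited log2 values per probe set, which the submitters' processing notes attribute to robust multiarray averaging (RMA). The build behind the array annotation was not given in the sources used here. No sample column was left out. The values were used as deposited, with no filter, in 1 model over all 4 groups (lmFit and eBayes of limma 3.58.1, run in R 4.3.3), with Benjamini-Hochberg adjustment. Residual spread was thus shared with the 12 HFD arrays. Figures were drawn with matplotlib 3.10.9. Nothing in the labels gives litters or cages, and precision is limited by the number of arrays. The platform table pairs 21789 probe sets with 1 symbol and 1621 with several, and leaves 12146 without a name here. For each of 19939 genes the brightest probe set on average was taken. Neighbours of *Ogg1* were taken from the order of genes in the GRCm38.p6 annotation.

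The members and the 63 gene lists were chosen with earlier results of these data known, so list counts are descriptions. Genes named are *Ogg1*, the 12 largest rises and 12 largest falls among called genes without overlap, the largest rise and fall with overlap, up to 4 members of each list with the smallest p among those that passed (or the smallest p in some lists where none did), genes measured by qPCR in the study, called genes near *Ogg1*, and the genes farthest from the group in *Ogg1-/-* replicate 1. *Rgs16*, *Cry2*, *Per2*, *Nr1d1*, *Nr1d2*, *Cry1*, *Clock*, *Rora*, *Nudt1*, *Adipor2*, *Sec13*, *Aqp8*, *Mtss1*, *Mug1*, *Klhl21*, *Cldn1*, *Ddc* and *Csrp3* were named after their values were seen. The steps were tested on simulated data. Alternatives tried were median centring, a replicate block, quantile normalization, array weights, omission of dim probe sets, a robust trended prior, the 12 chow arrays alone, the methods' t-test, other fold thresholds and leaving out each chow array. The study's other measurements were not analysed here.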

Additional observations from a re-analysis of the deposited data

Results flagged for a closer look

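For 81 of the genes named, 162 groups of 6 livers were examined for a liver set apart from the others by a gap that took up most of the group's range. Genes named only for their distance in *Ogg1-/-* replicate 1 were not among them. Chance alone gives such a gap in about 5% of groups.

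In most of the groups found, the distant liver was *Ogg1-/-* replicate 1, and most of those genes were of fuel metabolism. The genes examined included the 25 chosen for qPCR, many of them of fuel metabolism, so this follows in part from the choice. It lay below the other 5 livers in *Acadm* at 10.59 (others 11.77 to 11.96), *Sdha*, a subunit of succinate dehydrogenase, at 11.16 (11.89 to 12.09), *Idh3a* at 7.83 (8.90 to 9.25), *Mdh1* at 10.90 (12.01 to 12.42), *Pdha1* at 8.99 (9.91 to 10.24) and *Etfdh* at 9.18 (10.69 to 11.27). It was also lowest in *Ppargc1a* at 6.40 (7.21 to 7.59), *Fh1* at 9.85 (11.02 to 11.63), *Aco1*, which encodes a cytosolic aconitase and iron sensor, at 10.64 (11.19 to 11.48), *Sucla2*, a subunit of succinyl-CoA synthetase, at 9.16 (10.09 to 10.61) and *Mug2* at 8.02 (9.56 to 10.34). It was the highest in *Klhl21*, a ubiquitin ligase adaptor gene, at 9.14 (8.21 to 8.53), where the genotype difference of 0.68 became 0.56 without it. *Klhl21* did not pass when only the chow arrays were fitted (limma adjusted p = 0.0991).

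Other livers stood apart in fewer genes. *Ogg1-/-* replicate 2 was at 7.87 in *Ciart* (others 9.15 to 9.6), which is still above every WT liver. In WT livers, replicate 4 was at 6.26 in *Ogg1* (6.44 to 6.55), replicate 3 at 8.10 in *Klhl21* (7.71 to 7.84), and replicate 6 at 12.21 in *Sardh* (12.37 to 12.45), 7.86 in *Cry2* (8.05 to 8.15) and 10.55 in *Sucla2* (10.31 to 10.40).

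The genotype difference of *Tmeff2* differed between diets in the interaction test, at -1.17 for HFD minus chow (adjusted p = 0.000415 from limma).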

How the results depend on the processing

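Of 81 named genes, 50 passed on chow, none of these 50 changed sign under any alternative, and 16 passed under every one (*Ogg1*, *Ciart*, *Usp2*, *Bhlhe41*, *Dbp*, *Wee1*, *Tmeff2*, *Tef*, *Klf13*, *Mug2*, *Arntl*, *Chka*, *Bid*, *Herpud1*, *Sumf1* and *Adipor2*). The 86 probe sets called on chow (35 higher, 51 lower) became 43 (17, 26) when only the 12 chow arrays were fitted, 48 (21, 27) in that fit without *Ogg1-/-* replicate 1, and 25 (10, 15) by the methods' t-test. They were 170 (86, 84) with no fold threshold, 37 (17, 20) at a fold of at least 2, and 52 (28 lower) at 1 probe set per gene. Leaving out each chow array in turn gave 60 to 322 called, 24 to 80 higher and 36 to 242 lower, and the highest values all came without *Ogg1-/-* replicate 6. The next highest numbers were 120, 47 and 74. Leaving out replicates 1 and 6 together, an alternative chosen after seeing the data, gave 79. The single probe set with a difference between diets became 1 to 272 on leaving out each array (272 without *Ogg1-/-* replicate 1), 16 with array weights and 22 without replicates 1 and 6. The causes of these changes were not tested. In the fit of chow arrays alone 26 of the 50 passing genes no longer passed. This number was 12 without *Ogg1-/-* replicate 1, 0 without replicate 6, 3 to 13 without each other chow array, and 34 by the t-test. As to pairing, correlations between livers of the same replicate number ran from -0.27 to 0.34, so the numbers were not treated as pairs. A block for replicate number left 80 called on chow (30 higher, 50 lower) and 1 between diets.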

Other observations

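Of the 86 called probe sets, 17 have no gene name here and 13 carry several symbols, so that they are counted and not described.

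In *Ogg1-/-* replicate 1 some genes outside the lists described also lay far from the other 5 chow-fed *Ogg1-/-* livers. Above them were *Hamp2*, a hepcidin gene, by 1.65, *Foxa3*, a liver transcription factor gene, by 1.6, and *Id3* and *Id1*, which encode inhibitors of DNA binding, by 1.54 and 1.47 on the log2 scale. Below them were *Obp2a*, at a distance of -2.11, *Pnpt1*, a mitochondrial RNA-processing enzyme gene, at -2.14, and *Eif2s2*, a subunit of translation initiation factor eIF2, at -2.07.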
